A study of Mus musculus with 8 samples.

Results

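A set of 43 genes of hepatic stellate cells and of the extracellular matrix was followed in liver RNA of 5-week-old mice, out of 19348 genes in the deposited table. The members were taken by symbol, and all 43 were found. They were read as 3 classes: 9 markers of quiescent stellate cells, 7 genes of activated cells and their growth factor signalling, and 27 genes of matrix and matrix remodelling. The 2 groups were Stab1 knock-out mice, with 5 libraries, and wild-type mice, with 3 libraries, all from liver tissue. No treatment is named for either group, and the sources used here do not give strain, sex or the way the allele was made. The protein of Stab1, stabilin-1, clears waste molecules from blood and is found on the endothelium of liver sinusoids and on subsets of macrophages. The comparison asks whether liver RNA differs between mice with and without that receptor at this age.

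Hepatic stellate cells lie in the space between hepatocytes and the sinusoidal endothelium and store vitamin A as retinyl esters while quiescent. After injury they lose this store, take on contractile proteins and secrete fibrillar collagen, a change driven largely by transforming growth factor beta and platelet-derived growth factor. The matrix they lay down is cross-linked by lysyl oxidases and turned over by metalloproteinases, which tissue inhibitors of metalloproteinases restrain. Basement membrane collagens and laminins also come from endothelial and other cells, so matrix RNA in whole liver has several sources. In such bulk RNA, fewer cells of a type and less RNA per cell cannot be told apart.

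Libraries held between 4.85 and 10.8 M (mega-reads) assigned to genes. Stab1 itself had 5 to 16 reads in the knockout libraries and 474 to 594 in the wild-type libraries. Knockout library 1 stood apart. It was the shallowest, and its 3 reads of Xist and 320 of the Y-linked gene Ddx3y, against at least 4445 and at most 4 in every other library, mark it as male among females. Values without it are given where it moved a result. Long genes also differed between libraries: with genes put into 4 equal groups by length, the longest group minus the shortest differed in median deviation by 0.39, 0.31 and -0.09 on the log2 scale in wild-type libraries 1 to 3 and by 0.21, -0.35, -0.04, -0.29 and -0.16 in knockout libraries 1 to 5. Libraries of each genotype lay on either side of 0, but wild-type libraries 1 and 2 were the highest. Knockout libraries 2, 4 and 5 were the lowest, so the length differences partly followed genotype. Among the tested members 20 of 42 were in the longest group and 3 in the shortest, so the fit was repeated with gene length allowed for.

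No member passed the test between genotypes. Of the 43 members, 42 had enough reads to be tested, and 0 of them had an adjusted p below 0.05 in the edgeR quasi-likelihood test, against 0.227% of all 12338 tested genes. Without knockout library 1 it called 0 of 41 members (against 0.928% of all genes). At an unadjusted p below 0.05 there were 10 members with a lower level in knockout liver (23.8% of members, against 5.90% of all tested genes) and 0 with a higher level (against 7.73%). Without knockout library 1 there were again 10 lower, but the share over all genes rose (24.4%, against 12.3%), and 1 was higher. The DESeq2 Wald test called 0 members over all libraries (against 0.884% of all genes) and gave 10 lower at an unadjusted p below 0.05 (against 4.47%). The fitted log2 fold changes, knockout minus wild type, ran from -0.80 to 0.75, and 32 of 42 were negative, against 50.9% of all tested genes. Their median was -0.18, where that of all tested genes was -0.01. With gene length allowed for, the median was -0.14 and 7 members had a lower level at an unadjusted p below 0.05 (16.7%, against 5.68% of all tested genes). With knockout library 1 also left out, the median was -0.12, with 7 members lower (17.1%, against 10.8%) and 2 higher.

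The quiescent markers had a median log2 fold change of -0.19 with 8 of 9 negative, and the matrix genes a median of -0.18 with 20 of 26 negative. These medians were -0.12, with 6 of 9 negative, and -0.24 without knockout library 1. With gene length allowed for they were -0.21 and -0.10, and with knockout library 1 also left out -0.20 and -0.12. Leaving out each library in turn gave -0.30 (without knockout library 2) to -0.12 for the quiescent markers and -0.30 (without wild-type library 3) to -0.11 (without wild-type library 1) for the matrix genes. The 7 genes of activated cells had a median of -0.01. Positive values were 3 of 3 among the contractile and cytoskeletal members, and negative values 4 of 4 among the growth factor members. Of the latter, Tgfbr2 was at -0.01, in effect at 0. The contractile members are 1586 to 2572 bases long, while Pdgfra, Pdgfrb and Tgfbr2 are 4803 to 6570 bases and Tgfb1 is 2094. The part of gene length in this split was not tested. The median of the 7 genes had no stable sign: it was -0.14 without knockout library 1, 0.14 without wild-type library 1 and 0.10 with gene length allowed for. These class values, and the differences between classes, carry no test.

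In 5 members every knockout library lay below every wild-type library, namely Ecm1, Pdgfra, Col5a1, Lamc1 and Mmp14. These are 11.9% of the tested members, against 3.61% of all tested genes, and in 0 members did every knockout library lie above (against 3.04%). Without knockout library 1 the share below was 16.7% (against 8.82%), with 1 member above (against 9.39%). Without wild-type library 3 it was 31% (against 14.3%), with 0 above (against 13.7%), the largest share with any single library left out. Without wild-type library 1 it was 11.9% (against 5.48%), with 1 above (against 4.73%). With each remaining library left out it was 11.9% to 19% (against 4.15% to 5.26%). These placings use CPM, which makes no allowance for the length differences between libraries. Wild-type library 1 held the highest level of 19 of the 42 tested members (14.6% of all tested genes) and knockout library 2 the lowest of 17 (19.3% of all tested genes). Without wild-type library 1, 1 member rather than 10 had an unadjusted p below 0.05 and a lower level (2.38%, against 2.98% of all genes), and without knockout library 2 there were 5 (12.2%, against 3.99%).

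**Figure D1:**
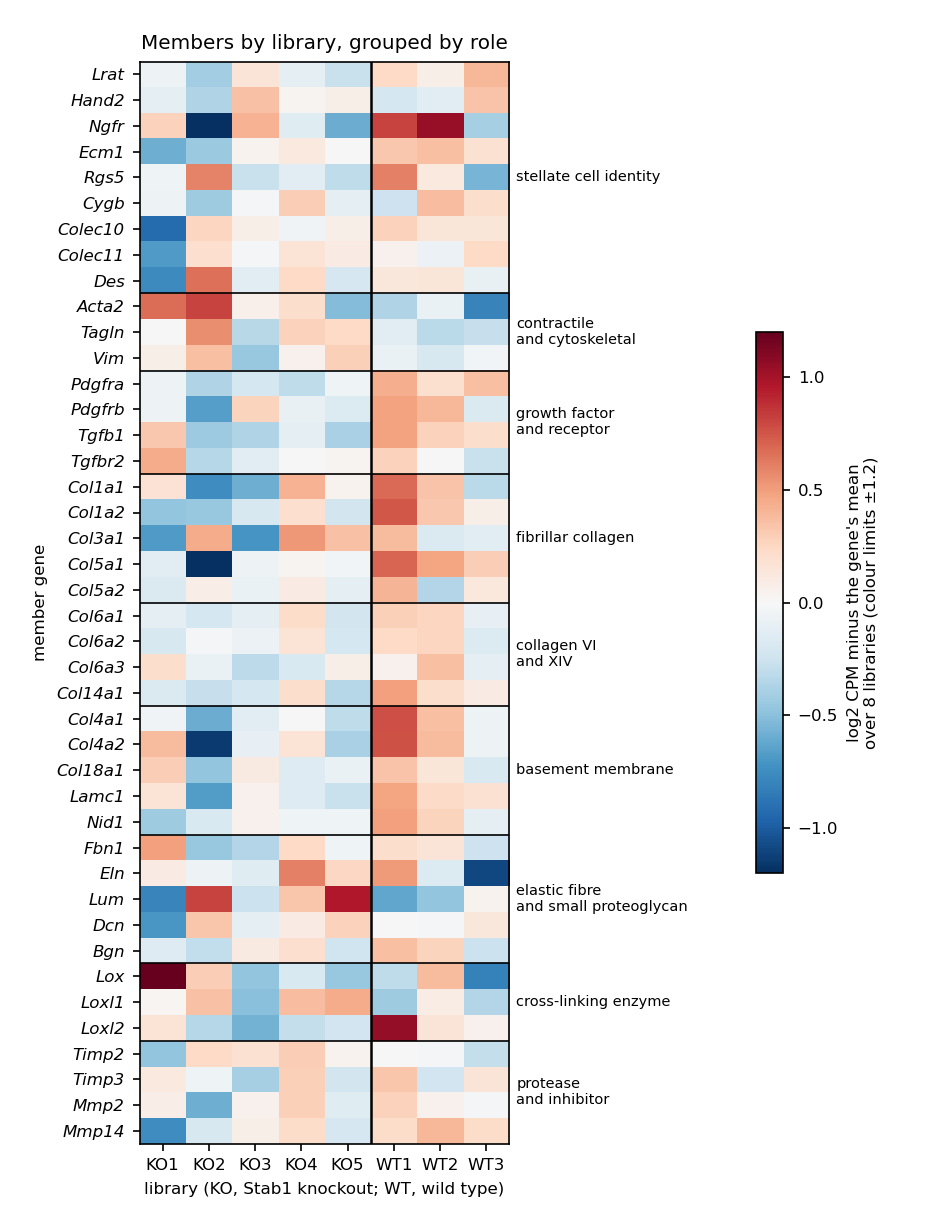
Heat map of the 42 tested members (rows, grouped by role) in the 8 libraries (columns), coloured by log2 CPM minus the gene's own mean over the libraries, with colour limits of ±1.2. Wild-type library 1 is the reddest column, with the highest level of 19 members, and knockout library 2 holds the lowest level of 17.

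**Figure D2:**
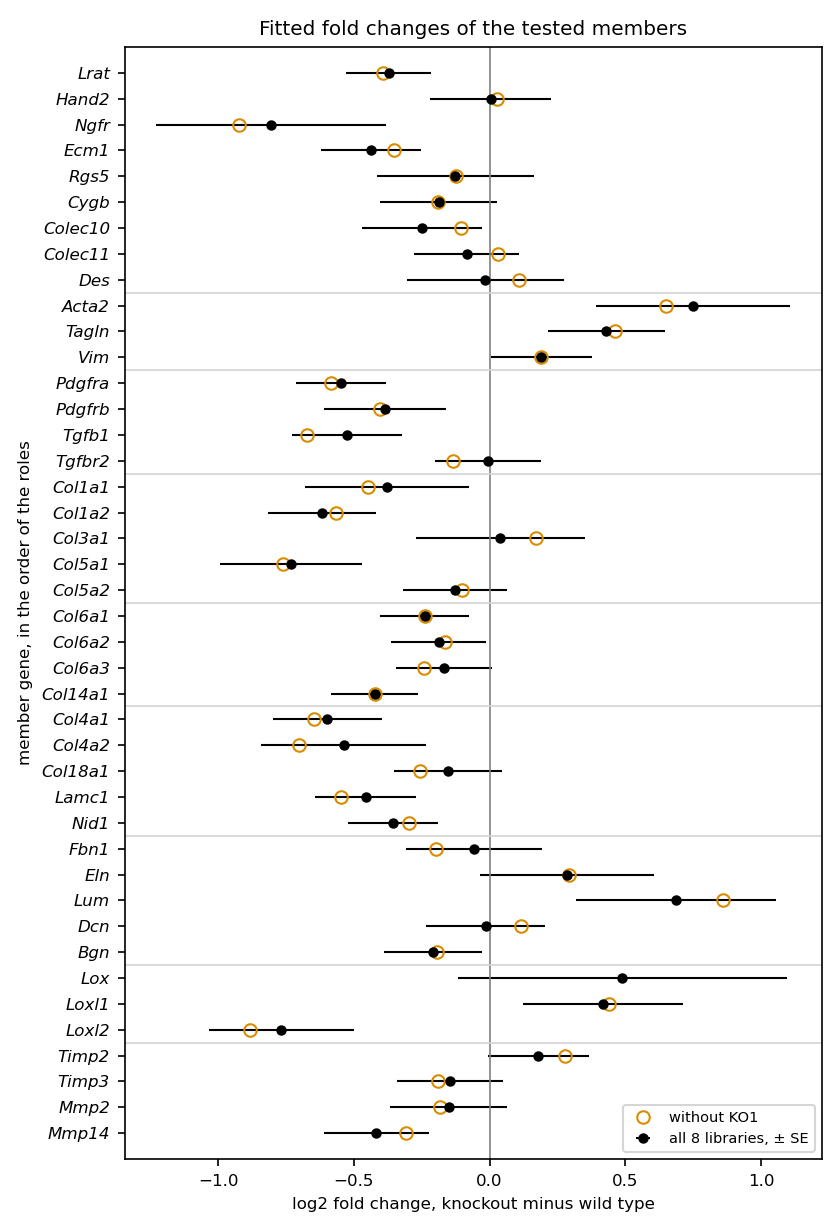
Fitted log2 fold change of each tested member, knockout minus wild type, with its standard error over all 8 libraries (black) and the value without knockout library 1 (open circles). Of 42 values 32 lie below 0, and the contractile genes Acta2, Tagln and Vim lie above it.

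The quiescent stellate cell markers cover vitamin A storage, lineage and secreted lectins. Levels are given in CPM (read counts scaled to library size) for knockout libraries 1 to 5 and then wild-type libraries 1 to 3. Lrat (gene identifier 79235) encodes lecithin retinol acyltransferase, which makes the retinyl esters of the stellate cell store. It stood at 27.8, 21.6, 32.4, 26.8 and 24.1 CPM in knockout and 34.4, 30.4 and 38.3 CPM in wild-type libraries. Knockout library 3 overlapped the wild-type range, and the other knockout libraries lay below it. The group levels were 26.5 ± 4.07 CPM (SD, n = 5) and 34.3 ± 3.93 CPM (SD, n = 3) (log2 fold change -0.37, SE 0.16, edgeR adjusted p = 0.351).

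Ecm1 (gene identifier 13601) encodes extracellular matrix protein 1, a secreted glycoprotein that holds transforming growth factor beta in its latent form in liver and is made by hepatocytes as well as stellate cells. Its level was 100.3, 110.3, 155, 163 and 151 CPM in the knockout and 189, 194 and 171 CPM in the wild-type libraries. The groups did not overlap, and knockout libraries 1 and 2 were the lowest. The means were 136 ± 28.5 and 184 ± 12.2 CPM (log2 fold change -0.44, SE 0.18, edgeR adjusted p = 0.350), and without knockout library 1 the fold change was -0.35 (edgeR adjusted p = 0.197).

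The promoter of Ecm1, among the members whose groups did not overlap, was chosen after the values were seen and carries no test. It is the 250 bases before the annotated RefSeq start on GRCm38.p6, chr3:95739570-95739819, minus strand, read 5′ to 3′. Capitals mark 2 core promoter motifs searched on both strands, the TATA box (TATAAA) and the GC box bound by Sp-family factors (GGGCGG), which do not overlap.
Ecm1: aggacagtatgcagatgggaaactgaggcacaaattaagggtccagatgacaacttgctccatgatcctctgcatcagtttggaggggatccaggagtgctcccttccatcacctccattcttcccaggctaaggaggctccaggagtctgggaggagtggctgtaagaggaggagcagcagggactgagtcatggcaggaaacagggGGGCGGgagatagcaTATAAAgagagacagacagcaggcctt
The TATA box lies 27 to 22 bases before the start and the GC box 42 to 37. Over all 32851 promoter windows of this length in the RefSeq table, 12.4% hold TATAAA, 32.7% hold GGGCGG and 33.8% hold the CCAAT box (CCAAT). Among the 28 members with an entry, 3 hold the first (Ecm1, Col3a1 and Vim), 18 the GC box and 13 the CCAAT box.

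Ngfr (gene identifier 18053), the low-affinity nerve growth factor receptor found on stellate cells, varied most within this class. It was at 5.87, 1.67, 6.51, 4.34 and 3.12 CPM in the knockout and 8.59, 10.1 and 3.61 CPM in the wild-type libraries. Knockout library 2 was the lowest, and wild-type library 3 lay inside the knockout range. The means were 4.30 ± 1.98 and 7.45 ± 3.41 CPM (log2 fold change -0.80, SE 0.42, edgeR adjusted p = 0.405), and its library counts were small, at 15 to 110 reads.

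The other 6 quiescent markers had log2 fold changes from -0.25 to 0.00 and adjusted p-values of at least 0.603 in the edgeR test. Hand2, a transcription factor of stellate cell identity, stood at 5.56 ± 1.04 and 5.57 ± 1.26 CPM in knockout and wild-type liver. Des, the intermediate filament desmin, stood at 4.93 ± 1.87 and 5.05 ± 0.468 CPM, and Cygb, the stellate cell globin cytoglobin, at 6.30 ± 1.17 and 7.19 ± 1.54 CPM. Rgs5, a pericyte regulator of G-protein signalling, stood at 10.8 ± 3.20 and 11.8 ± 4.61 CPM. Each of these 4 ranges overlapped between the groups.

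Colec10 and Colec11 encode the collectins liver 1 and kidney 1, soluble lectins of the complement system. Colec10 was at 25.0 CPM in knockout library 1 and between 46.2 and 57.0 CPM in knockout libraries 2 to 5, beside 52.7 to 57.5 CPM in wild-type liver. Colec11 was at 22.9 CPM in knockout library 1, at 36.4 to 42.4 CPM in the other knockout libraries and at 35.0 to 43.3 CPM in wild-type liver. The male library was thus the lowest for each lectin. Without it, the log2 fold changes of Colec10 and Colec11 moved from -0.25 and -0.08 to -0.11 and 0.03.

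Among genes of activated cells, the contractile members had positive fold changes that did not pass the test. Acta2 (gene identifier 11475), smooth muscle alpha-actin and the standard marker of myofibroblasts, was at 3.72, 4.12, 2.36, 2.65 and 1.50 CPM in the knockout and 1.70, 2.12 and 1.202 CPM in the wild-type libraries. All but knockout library 5 lay above the wild-type range. The means were 2.87 ± 1.06 and 1.67 ± 0.459 CPM (log2 fold change 0.75, SE 0.36, edgeR adjusted p = 0.380). These levels rest on 12 to 37 reads a library.

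The promoter of Acta2 is shown because its 2 CArG boxes, the sites of serum response factor that drive smooth muscle genes, are well known. It is the 250 bases before the RefSeq start, GRCm38.p6 chr19:34255374-34255623, minus strand, and capitals mark the boxes.
Acta2: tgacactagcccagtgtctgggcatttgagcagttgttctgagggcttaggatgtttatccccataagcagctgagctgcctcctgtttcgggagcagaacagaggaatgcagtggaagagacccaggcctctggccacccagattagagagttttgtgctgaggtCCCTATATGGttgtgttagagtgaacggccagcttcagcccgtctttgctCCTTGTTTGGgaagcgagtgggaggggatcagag
The boxes lie 84 to 75 and 34 to 25 bases before the annotated start. On either strand, the 2 words occur in 0.0274% and 0.0578% of all promoter windows, and Acta2 is the 1 member of 28 with either.

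Tagln (gene identifier 21345), the actin-binding protein transgelin, was at 7.63, 11.4, 6.03, 9.32 and 9.12 CPM in knockout and 6.99, 6.08 and 6.31 CPM in wild-type libraries. Knockout library 3 lay below all wild-type libraries and the other 4 above them. The log2 fold change was 0.43 (SE 0.22, edgeR adjusted p = 0.391). Vim (gene identifier 22352), vimentin, the intermediate filament of mesenchymal cells, was at 23.1, 28.4, 16.03, 22.8 and 26.9 CPM against 20.8, 19.3 and 21.5 CPM. It showed the same placing, with knockout library 3 the lowest of all 8 (log2 fold change 0.19, SE 0.19, edgeR adjusted p = 0.635).

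The growth factor and receptor genes had negative values, though that of Tgfbr2 was in effect 0. Pdgfra (gene identifier 18595), the alpha receptor of platelet-derived growth factor and a marker of liver mesenchyme, had the smallest p of all members. Its level was 6.06, 4.90, 5.47, 5.08 and 6.12 CPM in the knockout and 8.69, 7.28 and 8.21 CPM in the wild-type libraries. The groups did not overlap, and the knockout libraries lay close together at 5.53 ± 0.553 CPM (SD, n = 5) against 8.06 ± 0.716 CPM (SD, n = 3). The log2 fold change was -0.55 (SE 0.17, edgeR adjusted p = 0.312). It was -0.59 without knockout library 1 (edgeR adjusted p = 0.0981), and leaving out each library in turn gave -0.62 to -0.49.

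Tgfb1 (gene identifier 21803), the ligand transforming growth factor beta, was at 9.98, 5.80, 6.13, 7.31 and 6.002 CPM in the knockout and 11.1, 9.68 and 9.22 CPM in the wild-type libraries. Only knockout library 1 reached the wild-type range. The log2 fold change was -0.53 (SE 0.20, edgeR adjusted p = 0.338) and without that library -0.67 (edgeR adjusted p = 0.0776). The DESeq2 Wald test without knockout library 1, an alternative added after seeing the data, called Tgfb1 lower (log2 fold change -0.66, adjusted p = 0.0447), in a fit that called 8.61% of all genes, 3.09% lower and 5.52% higher.

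Pdgfrb (gene identifier 18596), the beta receptor through which stellate cells are driven to divide, was at 12.1, 7.91, 15.3, 11.9 and 11.3 CPM in knockout and 17.8, 16.8 and 11.2 CPM in wild-type libraries. Wild-type library 3 lay inside the knockout range (log2 fold change -0.38, SE 0.22, edgeR adjusted p = 0.441). Tgfbr2, the type II receptor of transforming growth factor beta, stood at 24.8 ± 5.26 and 24.8 ± 4.67 CPM (log2 fold change -0.01, SE 0.20).

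**Figure D3:**
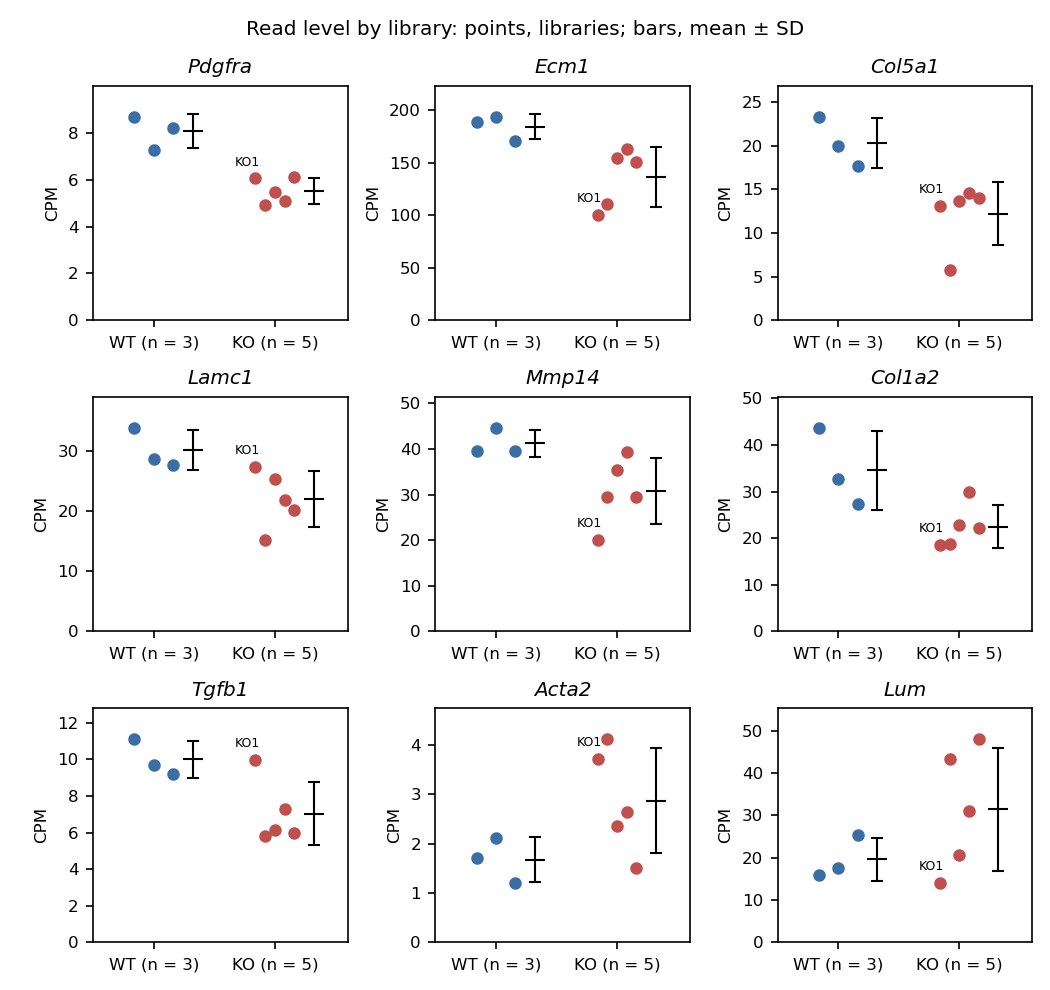
CPM of 9 members in each wild-type (blue, n = 3) and knockout (red, n = 5) library, with group mean ± SD in black and knockout library 1 marked. In Pdgfra, Ecm1, Col5a1, Lamc1 and Mmp14 the groups do not overlap, while Lum spreads from 14.1 to 48.1 CPM among knockout libraries.

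Fibrillar collagens form the cross-striated fibres of the portal tracts and of scar. Col1a2 (gene identifier 12843), the alpha 2 chain of type I collagen, was at 18.6, 18.8, 22.7, 29.9 and 22.3 CPM in the knockout and 43.7, 32.6 and 27.2 CPM in the wild-type libraries. Knockout library 4 overlapped wild-type library 3, and wild-type library 1 was far the highest. The means were 22.5 ± 4.56 and 34.5 ± 8.40 CPM (log2 fold change -0.62, SE 0.20, edgeR adjusted p = 0.331), and without wild-type library 1 the fold change was -0.41. Col1a1 (gene identifier 12842), its partner chain, was at 14.1, 7.36, 8.203, 16.7 and 12.8 CPM against 20.1, 15.8 and 9.92 CPM. Wild-type library 3 lay inside the knockout range (log2 fold change -0.38, SE 0.30, edgeR adjusted p = 0.560). Leaving out each library in turn gave -0.61 (without wild-type library 3) to -0.13 (without wild-type library 1).

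Col5a1 (gene identifier 12831), a chain of type V collagen that starts fibril assembly, was at 13.1, 5.80, 13.7, 14.6 and 14.0 CPM in knockout and 23.3, 19.9 and 17.6 CPM in wild-type libraries. The groups did not overlap, and knockout library 2 lay far below the other knockout libraries. The means were 12.2 ± 3.64 and 20.3 ± 2.87 CPM (log2 fold change -0.73, SE 0.26, edgeR adjusted p = 0.333). Leaving out each library in turn gave -0.82 to -0.55.

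The promoters of Col5a1 and Col1a2 are shown, chosen after the values were seen, as those of the fibrillar collagen genes with the smallest p. Each is the 250 bases before the start on GRCm38.p6, plus strand, at chr2:27886175-27886424 and chr6:4505368-4505617. Capitals mark GC boxes (GGGCGG, or CCGCCC for the opposite strand) and the CCAAT box.
Col5a1: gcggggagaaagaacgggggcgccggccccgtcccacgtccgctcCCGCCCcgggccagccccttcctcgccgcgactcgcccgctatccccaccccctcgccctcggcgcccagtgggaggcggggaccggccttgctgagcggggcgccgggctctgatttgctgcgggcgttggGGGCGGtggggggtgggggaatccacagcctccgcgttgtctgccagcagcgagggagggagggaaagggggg
Col1a2: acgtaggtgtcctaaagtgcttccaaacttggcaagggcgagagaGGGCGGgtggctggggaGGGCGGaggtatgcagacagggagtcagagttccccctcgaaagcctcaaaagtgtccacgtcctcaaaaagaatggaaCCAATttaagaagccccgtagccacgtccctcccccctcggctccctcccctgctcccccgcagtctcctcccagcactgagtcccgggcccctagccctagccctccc
Col5a1 has GC boxes at 205 to 200 (opposite strand) and 73 to 68 bases before its start. Col1a2 has GC boxes at 205 to 200 and 188 to 183 and a CCAAT box at 109 to 105 bases before its start. Neither window holds TATAAA.

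Col3a1, the chain of type III collagen and the most abundant fibrillar collagen RNA per length here, showed no such shift. Its deposited RPKM was 15.8 in knockout and 15.4 in wild-type liver (means of 5 and 3), against 4.37 and 6.68 for Col1a2. Its CPM fell into separate levels within the knockout group, 52.0 and 50.9 in libraries 1 and 3 and 106 to 119 in the other 3, with 73.6 to 109 in wild-type libraries (log2 fold change 0.04, SE 0.31, edgeR adjusted p = 0.960). Col5a2 stood at 8.66 ± 0.748 and 9.48 ± 2.46 CPM (log2 fold change -0.13).

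Col14a1 (gene identifier 12818), a collagen of fibril surfaces expressed by stellate cells, was at 55.2, 51.0, 53.6, 71.8 and 48.8 CPM in the knockout and 87.2, 71.8 and 66.6 CPM in the wild-type libraries. Knockout library 4 overlapped the wild-type range (log2 fold change -0.42, SE 0.16, edgeR adjusted p = 0.336). The chains of the beaded filament collagen VI had smaller values. Col6a1 (gene identifier 12833) was at 11.9, 11.1, 11.9, 15.04 and 11.1 CPM against 15.8, 15.5 and 12.02 CPM, and Col6a2 (gene identifier 12834) at 6.65, 7.58, 7.26, 8.58 and 6.58 CPM against 9.07, 9.21 and 6.81 CPM. Each overlapped between the groups, with log2 fold changes of -0.24 (SE 0.16) and -0.19 (SE 0.18), and Col6a3 had -0.17 (SE 0.18).

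Basement membrane genes all had negative values, with a median log2 fold change of -0.46 over 5 members. All 5 are long, at 5642 to 7622 bases, where the median of all tested genes was 2838 bases. Their median deviation was highest in wild-type library 1 (0.49) and lowest in knockout library 2 (-0.59), the libraries at the ends of the length differences. The values given for these genes make no allowance for length. Col4a1 (gene identifier 12826), a chain of the type IV collagen network, was at 52.0, 35.6, 48.9, 54.0 and 43.5 CPM in the knockout and 91.9, 69.0 and 51.6 CPM in the wild-type libraries. Wild-type library 3 lay among the knockout libraries and wild-type library 1 far above them. The log2 fold change was -0.60 (SE 0.20, edgeR adjusted p = 0.332), and -0.36 without wild-type library 1. Its partner Col4a2 was at 31.6 ± 11.4 and 45.7 ± 12.8 CPM (log2 fold change -0.54, SE 0.30), with -0.70 without knockout library 1 and -0.31 without wild-type library 1.

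Col4a1 and Col4a2 are transcribed away from each other from a shared start region. By the RefSeq starts on GRCm38.p6 their first 22 bases overlap on opposite strands, at chr8:11312805-11312826, and this stretch is printed on the plus strand, 5′ to 3′ for Col4a2, with its GC box in capitals.
Col4a1 and Col4a2 starts: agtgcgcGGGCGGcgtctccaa
Whether reads were assigned by strand is not given in the sources used here, so reads inside this short overlap may count for either gene.

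Lamc1 (gene identifier 226519), the gamma 1 chain of laminins, was at 27.4, 15.3, 25.3, 21.9 and 20.2 CPM in the knockout and 33.9, 28.8 and 27.7 CPM in the wild-type libraries. The groups did not overlap, though knockout library 1 came within 1 CPM of wild-type library 3. The means were 22.0 ± 4.70 and 30.1 ± 3.30 CPM (log2 fold change -0.46, SE 0.19, edgeR adjusted p = 0.345). Nid1 (gene identifier 18073), the laminin-binding linker nidogen, was at 24.5, 29.1, 34.2, 31.9 and 31.9 CPM against 46.4, 39.7 and 30.5 CPM (log2 fold change -0.36, SE 0.17, edgeR adjusted p = 0.373), with wild-type library 3 inside the knockout range.

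Col18a1, the proteoglycan collagen that carries the endostatin fragment, is made largely by hepatocytes in liver. It had the highest deposited RPKM of all members, at 169 in knockout and 185 ± 34.03 (SD, n = 3) in wild-type liver, followed by Dcn at 104 and 105 and Ecm1 at 71.5 and 96.6. Its libraries overlapped, from 700.3 to 1189 CPM in knockout and from 853 to 1229 CPM in wild-type libraries, with a log2 fold change of -0.15 (SE 0.20), or -0.26 without knockout library 1.

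Markers of sinusoidal endothelial cells, which also make basement membrane proteins, likewise had negative values that did not pass the edgeR test. All 13 listed markers were tested, and 0 were called by edgeR, with 13 of 13 log2 fold changes negative and a median of -0.33. Their summed level was 323 to 414 CPM in knockout and 421 to 566 CPM in wild-type liver, with wild-type library 1 the highest and knockout library 2 the lowest of all. None of the 13 was at 0 reads over the libraries. Kdr, a receptor of vascular endothelial growth factor, was at 31.5 ± 6.68 and 53.3 ± 15.02 CPM (log2 fold change -0.76, SE 0.22, edgeR adjusted p = 0.301), and DESeq2 called it lower without knockout library 1 (adjusted p = 0.00672). Flt4, a related receptor, was at 19.4 ± 4.82 and 28.0 ± 3.93 CPM (log2 fold change -0.54, SE 0.21, edgeR adjusted p = 0.339). Their part in the basement membrane values was not tested.

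Elastic fibre genes and small leucine-rich proteoglycans had mixed values. Lum (gene identifier 17022), the collagen-binding proteoglycan lumican, was at 14.1, 43.4, 20.6, 30.9 and 48.1 CPM in knockout and 15.9, 17.6 and 25.3 CPM in wild-type libraries. Knockout library 1 was the lowest of all 8, while libraries 2, 4 and 5 lay above every wild-type library. The log2 fold change was 0.69 (SE 0.37, edgeR adjusted p = 0.409) and 0.86 without knockout library 1 (edgeR adjusted p = 0.110). The DESeq2 Wald test without that library called Lum higher (adjusted p = 0.0418). Over all libraries DESeq2 did not call it.

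Eln (gene identifier 13717), elastin, was at 12.1, 10.8, 10.2, 17.4 and 13.5 CPM against 16.2, 10.04 and 5.21 CPM, so that the wild-type range enclosed nearly the whole knockout range. Its log2 fold change was 0.28 (SE 0.32, edgeR adjusted p = 0.676) and -0.04 without wild-type library 3. Bgn (gene identifier 12111), biglycan, was at 81.8, 74.0, 98.2, 104 and 77.2 CPM against 117, 110 and 75.8 CPM (log2 fold change -0.21, SE 0.18, edgeR adjusted p = 0.593). Dcn, decorin, a binder of transforming growth factor beta, was at 196 ± 50.1 and 198 ± 12.6 CPM (log2 fold change -0.01, SE 0.22), with knockout library 1 lowest at 119 CPM. Fbn1, the microfibril protein fibrillin 1, was at 6.42 ± 1.85 and 6.59 ± 1.12 CPM.

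Markers of the mesothelium, the cell layer that covers the liver and also makes matrix proteins, had their highest sums in the same knockout libraries as Lum. Over the 5 listed markers the summed level was 6.65, 27.5, 10.3, 26.9 and 20.2 CPM in knockout and 9.63, 6.27 and 4.91 CPM in wild-type libraries, and 0 of the 4 tested were called by edgeR. Upk3b, a uroplakin, was at 7.31 ± 4.34 and 2.22 ± 0.857 CPM (log2 fold change 1.73, SE 0.55, edgeR adjusted p = 0.327), and Upk1b at 2.18 ± 1.47 and 0.379 ± 0.151 CPM (2.52, SE 0.65, edgeR adjusted p = 0.264). DESeq2 called Upk1b higher over all libraries (adjusted p = 0.0364), and Upk3b only without knockout library 1 (adjusted p = 0.000241). None of these markers was at 0 reads over the libraries. Their part in the values of Lum was not tested.

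**Figure D4:**
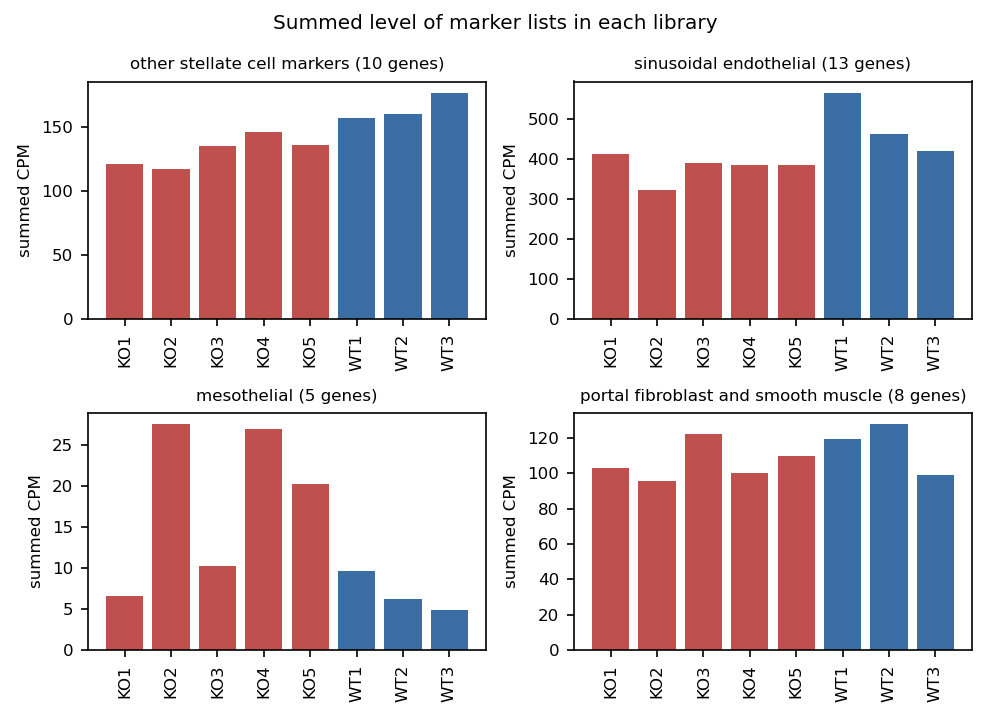
Summed CPM of 4 marker lists in each library (red, knockout; blue, wild type). The sinusoidal endothelial sum is highest in wild-type library 1 at 566 CPM, and the mesothelial sum is 20.2 to 27.5 CPM in knockout libraries 2, 4 and 5 and at most 10.3 CPM elsewhere.

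Lysyl oxidases cross-link collagen and elastin. Loxl2 (gene identifier 94352), which also acts in scarring liver, was at 7.04, 4.90, 4.15, 5.08 and 5.31 CPM in knockout and 13.2, 7.003 and 6.51 CPM in wild-type libraries. Only knockout library 1 overlapped the wild-type range, and wild-type library 1 was far above it. The log2 fold change was -0.77 (SE 0.27, edgeR adjusted p = 0.332), -0.88 without knockout library 1 (edgeR adjusted p = 0.0959) and -0.37 without wild-type library 1. Loxl1 (gene identifier 16949), which acts on elastin, was at 2.54, 3.23, 1.70, 3.28 and 3.46 CPM against 1.79, 2.67 and 1.90 CPM (log2 fold change 0.42, SE 0.29, edgeR adjusted p = 0.507).

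Lox (gene identifier 16948) held only 4 to 15 reads a library. Its level was 2.93 CPM in knockout library 1 and 0.566 to 1.11 CPM in the other knockout libraries, against 0.401 to 1.198 CPM in wild-type libraries (log2 fold change 0.49, SE 0.61, edgeR adjusted p = 0.705). Without knockout library 1 it no longer passed the filter on low counts, and DESeq2 then gave -0.02.

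Of the remodelling genes, Mmp14 (gene identifier 17387), a membrane metalloproteinase that activates the gelatinase encoded by Mmp2, was at 20.1, 29.5, 35.5, 39.4 and 29.4 CPM in knockout and 39.6, 44.7 and 39.6 CPM in wild-type libraries. The groups did not overlap, but knockout library 4 nearly reached the wild-type libraries, and the male library was the lowest. The means were 30.8 ± 7.29 and 41.3 ± 2.96 CPM (log2 fold change -0.42, SE 0.19, edgeR adjusted p = 0.371), and -0.31 without knockout library 1 (edgeR adjusted p = 0.217). Mmp2 itself was at 6.13 ± 1.34 and 6.80 ± 0.753 CPM (log2 fold change -0.15, SE 0.22).

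The inhibitors overlapped between the groups over all 8 libraries. Timp2 (gene identifier 21858) was at 12.5, 20.6, 19.8, 21.5 and 18.01 CPM against 17.6, 17.3 and 14.3 CPM (log2 fold change 0.18, SE 0.19, edgeR adjusted p = 0.654). Its log2 fold change was 0.28 without knockout library 1, and then each of the other 4 knockout libraries lay above the wild-type libraries. Timp3 (gene identifier 21859) was at 17.0, 15.2, 11.9, 19.2 and 13.4 CPM against 19.8, 13.4 and 17.5 CPM (log2 fold change -0.15, SE 0.20, edgeR adjusted p = 0.726). Timp1, which is strongly induced in activated stellate cells, was the 1 member below the filter. It held 4, 1, 0, 5 and 3 reads in the knockout and 2, 2 and 0 reads in the wild-type libraries. A count of 3 corresponds to 0.276 to 0.587 CPM at these depths, so that a small difference was not detectable. DESeq2, which did fit Timp1, gave a log2 fold change of 1.41 over all libraries (SE 1.26, adjusted p = 0.676).

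Ratios of partner genes within a library were read from the deposited RPKM values, which are divided by gene length. That division does not remove the differences of long genes between libraries. Col4a1 to Col4a2 was 1.51, 1.48 and 1.51 in the wild-type libraries but 1.12, 2.22, 1.47, 1.35 and 1.601 in the knockout libraries. The wild-type values were nearly equal, and knockout libraries 1 and 2 lay at the ends of the knockout range. Col6a1 to Col6a2, another pair of chromosomal neighbours, ran from 1.37 to 1.68 in knockout and from 1.57 to 1.65 in wild-type liver.

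Col1a1 to Col1a2 ran from 0.394 to 0.828 and from 0.398 to 0.531. The type I collagen protein holds 2 alpha 1 chains to 1 alpha 2 chain, but a ratio of RNA does not measure protein chains. For Col5a1 to Col5a2, the ratio was 1.32, 0.486, 1.28, 1.205 and 1.34 in knockout and 1.55, 2.26 and 1.43 in wild-type libraries, which did not overlap. Lum to Dcn, also neighbours, was 0.104 to 0.187 in knockout and 0.0748 to 0.108 in wild-type liver, which overlapped. These ratios carry no test.

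**Figure D5:**
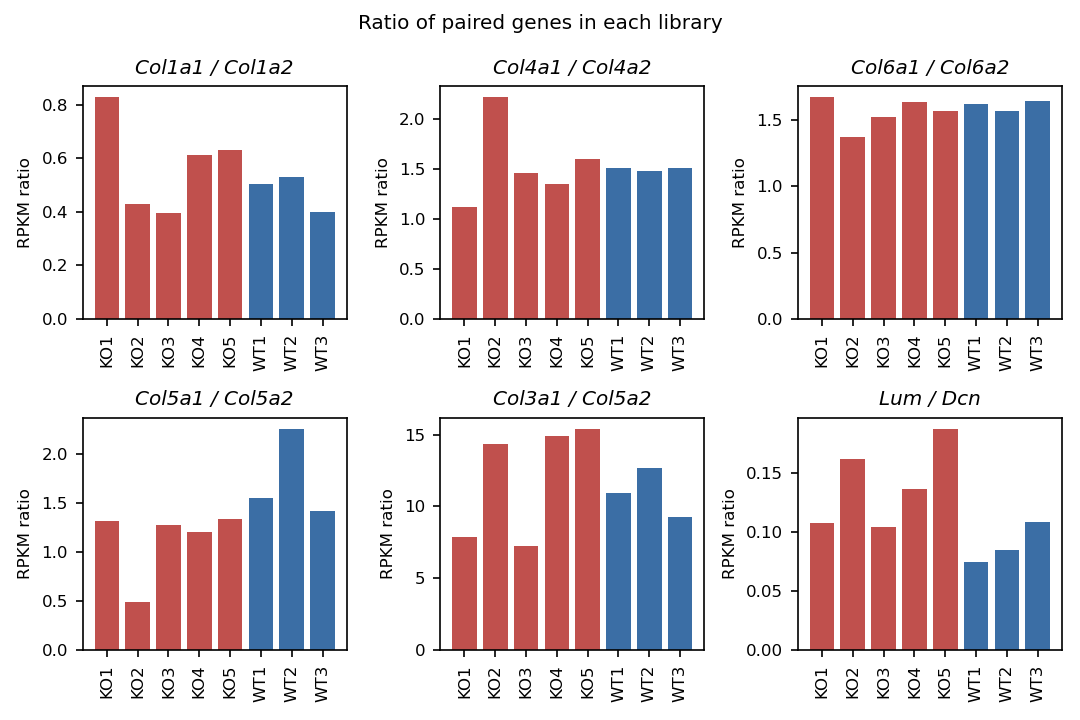
Ratio of deposited RPKM values of 6 gene pairs in each library (red, knockout; blue, wild type). Knockout library 2 has the highest Col4a1 to Col4a2 ratio, 2.22, and the lowest Col5a1 to Col5a2 ratio, 0.486.

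Further genes of the same processes were read from lists beside the members. Among 10 other stellate cell markers, 9 were tested, 0 were called, and 6 had negative log2 fold changes (median -0.21). Their summed level was 117 to 146 CPM over knockout and 157 to 177 CPM over wild-type libraries. Reln, the glycoprotein reelin made by stellate cells, was at 56.1, 41.2, 54.2, 48.9 and 50.3 CPM in knockout and 69.3, 71.5 and 68.9 CPM in wild-type libraries, which did not overlap (log2 fold change -0.48, SE 0.13, edgeR adjusted p = 0.293). Reln was a large part of the summed level, so that sum and Reln are not separate observations. Without knockout library 1 the DESeq2 Wald test called Reln lower (adjusted p = 0.0163). Nes, the filament protein nestin, was at 3.48 ± 0.690 and 5.20 ± 1.35 CPM (log2 fold change -0.59, edgeR adjusted p = 0.343).

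Of 23 other genes of the transforming growth factor beta and platelet-derived growth factor pathways, 22 were tested, 0 were called, and 11 were negative (median 0.00, and -0.10 without knockout library 1). Smad6, an inhibitory Smad, was at 5.53 ± 0.842 and 8.71 ± 0.669 CPM (log2 fold change -0.65, SE 0.18, edgeR adjusted p = 0.293). Ltbp4, which tethers the latent growth factor in matrix, was at 32.9 ± 4.94 and 48.1 ± 6.57 CPM (log2 fold change -0.55, SE 0.16, edgeR adjusted p = 0.301). In each, the groups did not overlap. In the DESeq2 fit without knockout library 1, the test called Ltbp4 lower (adjusted p = 0.0410) and Tgfbr1 higher (adjusted p = 0.0308). Tgfbr1, the type I receptor of transforming growth factor beta and named after its values were seen, was at 46.2 ± 15.01 and 31.2 ± 3.63 CPM (log2 fold change 0.57, SE 0.25, edgeR adjusted p = 0.360).

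Of 31 other matrix genes, 26 were tested, 0 were called by edgeR, and 14 were negative (median -0.08, and -0.18 without knockout library 1). Nid2, the nidogen 2 of basement membranes, was at 5.67, 3.90, 5.00, 5.51 and 3.92 CPM in knockout and 15.4, 12.2 and 6.01 CPM in wild-type libraries (log2 fold change -1.23, SE 0.28, edgeR adjusted p = 0.231). The groups did not overlap, wild-type library 3 lay nearest to the knockout libraries, and the DESeq2 Wald test called it over all libraries (adjusted p = 0.0239), as edgeR did without wild-type library 3 (adjusted p = 0.0154). Lamb1, a laminin beta chain, was at 9.40 ± 0.871 and 13.7 ± 1.63 CPM (log2 fold change -0.54, SE 0.15, edgeR adjusted p = 0.293). Without knockout library 1, DESeq2 called Nid2 lower (adjusted p = 0.00452), together with 3 genes named after their values were seen. Mmp19, a metalloproteinase, was lower (adjusted p = 0.0245), as was Emilin1, an elastic fibre glycoprotein (adjusted p = 0.0357), and Efemp1, a fibulin, was higher (adjusted p = 0.0124). Efemp1 was at 17.1 ± 8.15 and 8.87 ± 1.97 CPM (log2 fold change 0.96, SE 0.37, edgeR adjusted p = 0.340).

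All 13 collagen processing genes were tested, with 0 called and 10 negative (median -0.10). Bmp1, the protease that trims procollagen, was at 119 ± 12.5 and 155 ± 3.21 CPM (log2 fold change -0.39, SE 0.13, edgeR adjusted p = 0.332), and P3h1, a prolyl hydroxylase, at 14.7 ± 1.53 and 19.2 ± 5.04 CPM. Of 8 markers of portal fibroblasts and smooth muscle, 5 were tested and 0 called (median 0.15), and their sum was 95.9 to 122 CPM in knockout and 98.8 to 128 CPM in wild-type liver. Smtn, smoothelin, was at 7.199 ± 1.04 and 9.65 ± 2.21 CPM, and Entpd2, an ectonucleotidase of portal fibroblasts, at 5.16 ± 0.824 and 4.002 ± 1.153 CPM.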

How the data were processed

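Messenger RNA of liver tissue was sequenced in 8 libraries, grouped by their labels. The authors deposited 1 gene table, which holds, per the file headers, a count of unique reads for each gene, the percent of the gene's length covered by reads, and RPKM (reads scaled by length and library total). Recomputed RPKM equalled the deposited RPKM. The coverage percent was not used for any result. Aligner, build and strandedness: not given in the sources used here. A dash was read as 0, and reads of 113 identifiers on 229 rows were summed, leaving 19348 genes.

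Counts were tested in R 4.3.3 with edgeR 4.0.16 (filterByExpr defaults, TMM scaling, quasi-likelihood F test, no covariate), with Benjamini-Hochberg adjustment over 12338 tested genes and a call at an adjusted p below 0.05. SE is the log2 fold change, without its sign, over the root of F. For CPM, division was by the TMM-scaled sizes, and log2 CPM had a prior count of 2. The test was tried on simulated counts. Alternatives used DESeq2 1.42.0 and a lowess offset on gene length (span 0.3). Figures were drawn with matplotlib 3.10.9. Whether each library is a separate animal is not labelled. The p-values therefore reflect only how these libraries spread, which may be technical.

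The members and lists were chosen with earlier results of these data known. Named in full were, for each of 9 roles, at most 3 tested members by smallest p, and in the other lists at most 2 genes. Promoters were chosen after the values were seen. Of 133 genes on 11 other lists, 133 were matched, 3 of them by RefSeq identifier. Promoters came from the RefSeq table of GRCm38.p6.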

Additional observations from a re-analysis of the deposited data

Results flagged for a closer look

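In 5 of 42 members 1 knockout library lay far from the other 4, by a gap of more than 0.71 of the group's whole range in log2 CPM. Chance alone gives about 1 such group in 20. Colec10 (a gap of 0.744 of the range) and Colec11 (0.753) were low in knockout library 1, the male and shallowest library. Col5a1 (0.881) was low and Rgs5 (0.719) high in knockout library 2, and Col6a1 (0.758) was high in knockout library 4.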

How the results depend on the processing

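With each of 13 other settings, 0 members were called. The class medians moved by less than the spread between libraries, which was 0.134 (quiescent), 0.187 (activated) and 0.180 (matrix). The activated and matrix medians, -0.006 and -0.178, were themselves smaller in size than that spread. This rule therefore cannot show that their sign held, and the activated median did change sign. With any single library left out the median over all members ran from -0.28 to -0.11. The DESeq2 Wald test without knockout library 1, added after seeing the data, called 2 members, Lum and Tgfb1, in a fit that called 8.61% of all genes. The replicate numbers did not pair the libraries: the same-numbered pairs correlated at 0.124, -0.148 and -0.15. With the replicate number as a block 0 members and 8 genes in all were called, with a median over all members of -0.25. Over all genes, DESeq2 called 130 genes against 28, and edgeR called 114 without knockout library 1 and, with wild-type library 1, 2 or 3 left out, 15, 13 and 93. Low counts limit Timp1, Lox and Acta2.

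In 13 genes, each far from a call, the sign of the log2 fold change turned in some setting, and the cause was not tested. With the length offset it was 0.10 for Tgfbr2, 0.015 for Col5a2, 0.10 for Fbn1 and -0.011 for Hand2. With that offset and without knockout library 1 it was 0.025 for Colec10, 0.081 for Des, 0.0059 for Tgfbr2, 0.078 for Col5a2, 0.0016 for Col6a3, 0.045 for Fbn1 and 0.049 for Dcn. DESeq2 without knockout library 1 gave 0.039 for Colec11, 0.12 for Des, 0.12 for Dcn and -0.015 for Lox. The replicate block gave -0.039 for Hand2, 0.051 for Rgs5 and -0.34 for Col3a1, and no filter on low counts -0.0067 for Hand2. With single libraries left out the values ran from -0.10 to 0.20 for Hand2, -0.38 to 0.19 for Rgs5, -0.16 to 0.032 for Colec11, -0.22 to 0.11 for Des, -0.14 to 0.14 for Tgfbr2, -0.091 to 0.25 for Col3a1, -0.32 to 0.065 for Col5a2, -0.20 to 0.046 for Fbn1, -0.037 to 0.75 for Eln and -0.10 to 0.11 for Dcn.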

Other observations

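Markers of other liver cells were read beside these values, and the edgeR test over all 8 libraries called 0 of them. With a single library left out, its lowest adjusted p was 0.0196 for Tat and 0.0385 for the erythroid marker Car1. Hepatocyte markers dominated every library, with a median log2 fold change of -0.50 over 7 genes (-0.35 without knockout library 1). Of these genes 4 had negative values and 3, Apoa1, Cyp2e1 and Ttr, positive ones. Both medians were the values of albumin (Alb). It was at 86938 ± 23538 CPM (SD, n = 5) against 123190 ± 6418 CPM (SD, n = 3), knockout against wild type, and was lowest in knockout library 1 at 46519 CPM. Tat, the tyrosine-degrading aminotransferase, was at 425 ± 71.5 and 849 ± 337 CPM (log2 fold change -0.998, SE 0.26, edgeR adjusted p = 0.264), and DESeq2 over all libraries called it lower (adjusted p = 0.0306).

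Kupffer cell markers had 8 of 11 positive log2 fold changes (median 0.26, and 0.15 without knockout library 1). Cholangiocyte markers had 4 of 5 tested positive (median 0.71), with a summed level of 56.7 to 132 CPM against 53.9 to 65.1 CPM. Erythroid markers had 5 of 5 tested positive (median 0.98, and 0.96 without knockout library 1), with sums of 67.3 to 195 CPM and 64.3 to 64.5 CPM. The sum of 195 CPM was that of knockout library 1, where Alas2 alone was at 154 CPM. Without that library the log2 fold change of Alas2 moved from 1.12 to 0.30. At an unadjusted p below 0.05, 2 Kupffer cell, 2 cholangiocyte and 3 erythroid markers were higher, where 7.73% of all tested genes were, and 1 hepatocyte marker, Tat, was lower, where 5.90% were. Without knockout library 1, the DESeq2 Wald test called the cholangiocyte markers Spp1 (adjusted p = 0.000851) and Krt7 (0.0316) higher. It also called the erythroid markers Hbb-b1 (0.00399), Hba-a1 (0.0322) and Car1 (0.0308) higher. Tat was called lower (0.00157) and no Kupffer cell marker was called, in a fit that called 8.61% of all genes.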
